A study of Rattus norvegicus with 8 samples.

Results

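The NADPH oxidases and dual oxidases studied here are a family of 9 listed genes: the dual oxidases Duox1 and Duox2, their maturation factors Duoxa1 and Duoxa2, the oxidases Nox1 and Nox4, and Cyba, Cybb and Ncf1 of the phagocyte oxidase. A member was measured where the platform annotation gave a probe set that gene symbol alone. This held for 8 of the 9 members, with 1 probe set each, among 18166 genes in all, and Nox1 was not analysed here. A rule to take the probe set with the highest mean over the 8 arrays therefore made no choice. The list was drawn up with earlier results of these arrays known, in which Duox2 stood among the largest increases. Duox2 was thus in effect chosen by its measured difference, which is given below as a description with no p-value. The adjusted p-values of the other members describe the fit over all genes and are no independent test.

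The 8 arrays measured total RNA of alveolar type II (ATII) cells, the surfactant-making epithelial cells of the lung, from 4 male Sprague Dawley rats. Cells of each rat gave 1 well with AdGFP, an adenovirus for green fluorescent protein, and 1 well with AdHIF1a, an adenovirus for a mutant of the hypoxia-inducible factor subunit HIF1a that is constitutively active. Controls and treated wells alike were exposed to their virus (multiplicity of infection 20) in 2% fetal bovine serum for 3 h. The cells were then kept on a gel of 80% collagen and 20% Matrigel in 5% rat serum until RNA harvest at 24 h. Each rat's wells had an extraction date of their own. The sources used here do not give the rats' ages, the promoter of the transgene or the share of cells transduced.

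NADPH oxidases pass electrons from NADPH across a membrane to oxygen and so make superoxide or hydrogen peroxide. The dual oxidases carry a peroxidase-like domain as well, release hydrogen peroxide at the apical face of epithelia, and serve antimicrobial peroxidases at the airway surface. Each needs a maturation factor to leave the endoplasmic reticulum, and the DUOX and DUOXA genes lie head to head in 2 pairs. In the phagocyte oxidase, Cybb (gp91phox) is the catalytic subunit, Cyba (p22phox) its membrane partner, which Nox1 and Nox4 also use, and Ncf1 (p47phox) the cytosolic organiser that is recruited on activation.

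The promoter windows of the DUOX locus are shown because the members that rose and those that did not lie side by side there. They are RefSeq sequences of build GRCr8, with 250 bases before and 50 bases after the annotated start, printed on the strand of the gene. The capitals mark matches to the core of the hypoxia response element, searched as ACGTG and GCGTG on both strands, so that CACGT and CACGC count as matches to the opposite strand. Windows of 8 of the 9 members were in the table used, all but that of Duoxa2. The window of Duox2 (chr3:129698704-129699003, minus strand) also holds the boundary of the neighbouring gene Duoxa2, and that of Duoxa1 (chr3:129713957-129714256, minus strand) the boundary of Duox1. The window of Duox1 (chr3:129715746-129716045, plus strand) lies inside the annotated gene, downstream of the gene's first base.
Duox2: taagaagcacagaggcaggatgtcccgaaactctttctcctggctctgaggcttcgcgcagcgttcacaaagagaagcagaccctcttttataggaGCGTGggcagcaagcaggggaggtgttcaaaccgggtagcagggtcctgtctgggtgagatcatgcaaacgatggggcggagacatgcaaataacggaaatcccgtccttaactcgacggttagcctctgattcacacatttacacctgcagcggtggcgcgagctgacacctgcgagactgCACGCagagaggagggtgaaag
Duoxa1: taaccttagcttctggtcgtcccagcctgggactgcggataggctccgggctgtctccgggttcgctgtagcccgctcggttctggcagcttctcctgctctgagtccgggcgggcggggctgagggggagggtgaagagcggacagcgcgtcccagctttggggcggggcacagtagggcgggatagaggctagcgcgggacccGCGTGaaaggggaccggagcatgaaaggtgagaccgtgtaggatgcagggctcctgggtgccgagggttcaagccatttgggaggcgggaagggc
Duox1: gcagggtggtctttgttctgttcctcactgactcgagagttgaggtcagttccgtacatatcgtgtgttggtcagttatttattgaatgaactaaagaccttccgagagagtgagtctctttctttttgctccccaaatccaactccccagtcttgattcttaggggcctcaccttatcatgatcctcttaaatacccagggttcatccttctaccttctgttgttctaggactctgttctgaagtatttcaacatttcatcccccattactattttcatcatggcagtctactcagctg

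ACGTG was found in none of the windows of Duox2, Duoxa1 and Duox1, and Duoxa2 had no window of its own to search. The window of Duox2 held GCGTG at 2 places, positions -154 to -150 and, on the opposite strand, 29 to 33, counted from the annotated start. The window of Duoxa1 held it at 1 place (-45 to -41), and that of Duox1, which lies downstream of the gene's first base, at 0. The boundaries of Duoxa2 and Duox1 lie in the windows of Duox2 and Duoxa1, so the matches there are not particular to Duox2 and Duoxa1. Elsewhere in the family, ACGTG lay in the windows of Nox1 and Cybb, GCGTG in those of Nox4 and Cyba, and neither in that of Ncf1. Of 33469 promoter windows of this length, 19.3% held ACGTG, 29.7% GCGTG and 41.6% either, so a match is common. These matches are descriptions of letters within a window and show no binding.

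The comparison of AdHIF1a with AdGFP wells asks which genes change when constitutively active HIF1a is expressed, and within this family Duox2 and Duoxa2 rose. Duox2 was 18.3-fold and Duoxa2 2.44-fold higher. Their paralogues Duox1 and Duoxa1 differed by 0.02 log2 units or less, and the phagocyte oxidase genes Cyba, Cybb and Ncf1 by -0.11 to -0.55. In the paired limma fit 2 of the 8 measured members were called higher and 0 lower, at an adjusted p under 0.05 over all genes, beside 13.4% of all genes called, 5.68% higher and 7.77% lower. Since the list was chosen with the difference of Duox2 in view, nothing is read from that count. Counts of other genes called, given below, are to be read beside the same shares. For counts at an unadjusted p under 0.05 the share of all genes was not computed, and nothing is read from them. Each difference is the AdHIF1a value less the AdGFP value of the same rat, averaged over rats, in log2 units ± standard error (SE), with a 95% interval. On arrays, signals of different probe sets cannot be ranked against each other, so levels are compared only within a gene.

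**Figure D1:**
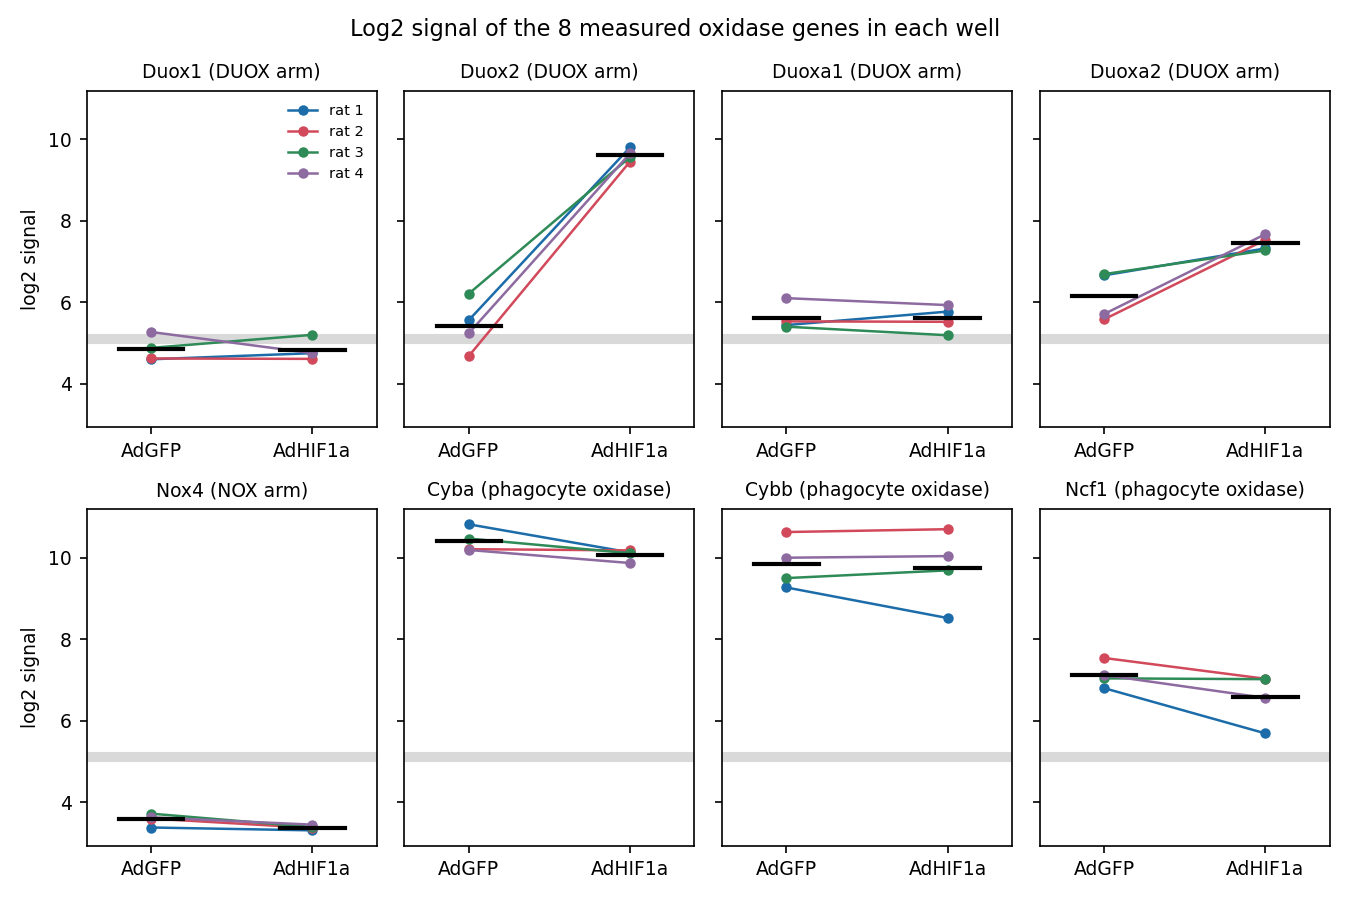
Log2 signal (vertical axis) of each measured member in the AdGFP and AdHIF1a wells, with the 2 wells of a rat joined, black bars for group means (4 wells each) and a grey band for the range of the array medians, 5.00 to 5.20. Duox2 and Duoxa2 have every AdHIF1a well above every AdGFP well, the wells of Duox1, Duoxa1 and Cybb overlap, and Nox4 lies below the band in all wells.

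Duox2, the dual oxidase (probe set 17776508), had AdGFP signals of 5.56, 4.68, 6.21 and 5.24 in rats 1 to 4 and AdHIF1a signals of 9.80, 9.45, 9.56 and 9.65. All 4 AdHIF1a wells lay above all 4 AdGFP wells, with a gap wider than the spread of either group. The mean went from 5.42 ± 0.64 to 9.62 ± 0.15 (SD, n = 4), a difference of 4.19 ± 0.23 (95% interval 3.61 to 4.78), or 18.3-fold (12.2 to 27.4). It was the 7th largest increase of the 18166 genes. The control signals lay near the array medians (5.00 to 5.20), and the files hold no detection calls, so the fold is not an exact size. The AdGFP wells differed more among rats than the AdHIF1a wells, and the rat with the highest control signal, rat 3, had the smallest difference (3.35). Without any 1 rat the difference ranged from 4.0 to 4.47.

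Duoxa2, the maturation factor that pairs with Duox2 (probe set 17765578), had AdGFP signals of 6.66, 5.58, 6.69 and 5.71 and AdHIF1a signals of 7.32, 7.53, 7.27 and 7.67 in rats 1 to 4. Its groups did not overlap either, but the control wells formed a high pair (rats 1 and 3) and a low pair (rats 2 and 4). The differences were accordingly 0.66 and 0.58 in rats 1 and 3, and 1.95 and 1.96 in rats 2 and 4. The mean difference was 1.29 ± 0.29 (0.56 to 2.02), or 2.44-fold (1.47 to 4.05), with an adjusted p of 0.0440 in the paired limma fit. This call was lost without rat 1 (adjusted p = 0.0559), rat 2 (0.158), rat 3 (0.0682) or rat 4 (0.164), while the difference stayed between 1.06 and 1.52. Duox2 exceeded Duoxa2 in its difference in 4 of 4 rats, by 2.45 to 3.58.

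Duox1, the other dual oxidase (probe set 17765585), had AdGFP signals of 4.60, 4.62, 4.88 and 5.27 and AdHIF1a signals of 4.75, 4.61, 5.20 and 4.75. The wells of both groups overlapped, near or below the array medians, and the rats went both ways. The difference was -0.02 ± 0.15, with an interval from -0.40 to 0.37 (limma adjusted p = 0.966). Duoxa1, its maturation factor (probe set 17776543), had AdGFP signals of 5.44, 5.53, 5.4 and 6.10 and AdHIF1a signals of 5.77, 5.52, 5.19 and 5.93. These wells overlapped too, with rat 4 highest in both groups. The difference was -0.02 ± 0.12, with an interval from -0.31 to 0.28 (limma adjusted p = 0.954). The intervals leave room for changes of about 0.3 to 0.4 log2 units in either gene, and a p that misses the threshold does not show that they were unchanged.

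In annotated order the DUOX cluster reads Duox2, Duoxa2, Duoxa1, Duox1, so the members called higher form one head-to-head pair and the uncalled members the other. Within rats, Duox2 exceeded Duox1 in its difference by 3.03 to 4.93, and Duoxa2 exceeded Duoxa1 by 0.33 to 2.13. Among the 4 nearest measured protein-coding genes on each side, limma called 0 of 8, beside 13.4% of all genes. Of the 8, 0 had an unadjusted p under 0.05. Nothing is read from counts over so few genes. Sord, the sorbitol dehydrogenase gene next to Duox2, differed by -0.09 ± 0.14, and Shf, next to Duox1, by -0.08 ± 0.09. The farthest of the 8 from 0 was Terb2 (0.13 ± 0.11).

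**Figure D2:**
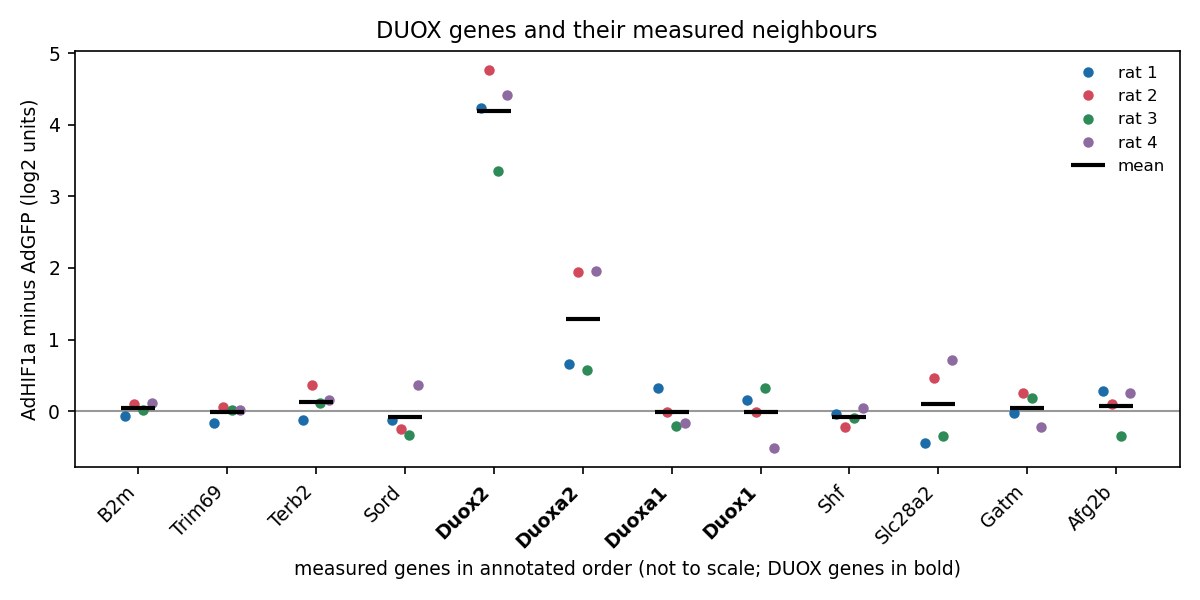
Difference between the AdHIF1a and AdGFP wells (log2 units) for the DUOX genes, in bold, and the 4 nearest measured protein-coding genes on each side, in annotated order and not to scale, with 1 point per rat and a bar for the mean. Duox2 (4.19) and Duoxa2 (1.29) stand away from 0, while the other 10 genes have means between -0.09 and 0.13.

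Nox4, an oxidase that makes hydrogen peroxide and needs no cytosolic organiser (probe set 17618091), had AdGFP signals of 3.38, 3.60, 3.72 and 3.63 and AdHIF1a signals of 3.31, 3.37, 3.39 and 3.45. All 8 signals lay below the array medians, where folds are compressed, and the groups overlapped through rat 1. The difference was negative in 4 of 4 rats but small, -0.20 ± 0.09 (-0.42 to 0.02, limma adjusted p = 0.208).

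The phagocyte oxidase genes gave signals above the array medians (5.00 to 5.20) in every well, the lowest being 5.69 for Ncf1. They were not called in either direction. In limma 0 of 3 passed after adjustment, while Cyba and Ncf1 had an unadjusted p under 0.05 (0.0346 and 0.0250). Their median difference was -0.35, beside a median of -0.005 over all 18166 genes.

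Cyba, the membrane partner shared by several oxidases (probe set 17734107), had AdGFP signals of 10.82, 10.21, 10.47 and 10.19 and AdHIF1a signals of 10.13, 10.18, 10.11 and 9.87. Every AdHIF1a well was just below every AdGFP well. All 4 AdHIF1a wells lay above all AdGFP wells in 2 of the 8 members, beside 10.3% of all genes, and below them in 1, Cyba, beside 12.2%. The difference of Cyba was -0.35 ± 0.13 (-0.66 to -0.04, limma adjusted p = 0.143), from -0.03 in rat 2 to -0.69 in rat 1.

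Cybb, the catalytic subunit of the phagocyte oxidase (probe set 17876099), had AdGFP signals of 9.27, 10.63, 9.50 and 10.00 and AdHIF1a signals of 8.52, 10.70, 9.69 and 10.04. Rats differed more than viruses did, with rat 2 highest and rat 1 lowest in both groups. Rat 1 gave -0.75, while rats 2, 3 and 4 gave 0.07, 0.19 and 0.04, for a mean of -0.11 ± 0.18 (-0.55 to 0.33, limma adjusted p = 0.745). Without rat 1 its sign turned, to 0.10 (adjusted p = 0.544).

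Ncf1, the cytosolic organiser (probe set 17673222), had AdGFP signals of 6.80, 7.54, 7.04 and 7.12 and AdHIF1a signals of 5.69, 7.03, 7.02 and 6.56. The groups overlapped, and the lowest well was again the AdHIF1a well of rat 1. The difference was -0.55 ± 0.18 (-1.0 to -0.10, limma adjusted p = 0.116). No rat had a higher AdHIF1a value, and the difference ran from -0.02 in rat 3 to -1.11 in rat 1. It was lower than that of Cybb in 4 of 4 rats, by 0.21 to 0.60.

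**Figure D3:**
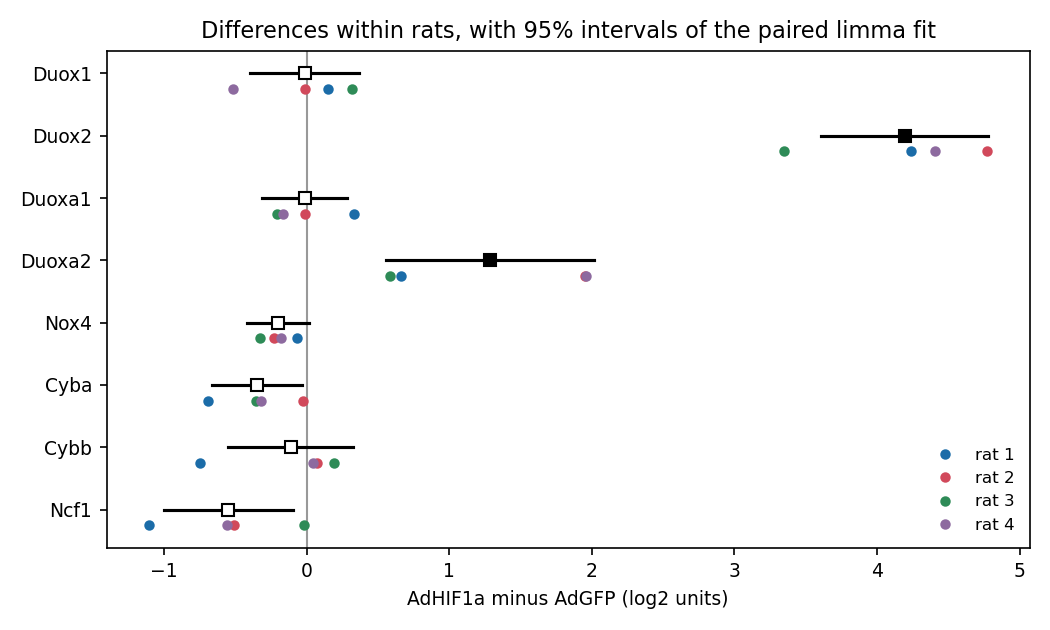
Difference between the AdHIF1a and AdGFP wells (horizontal axis, log2 units) for each measured member, with squares for the mean, filled where called at an adjusted p under 0.05, lines for 95% intervals of the paired limma fit, and 1 point per rat. Duox2 (4.19) and Duoxa2 (1.29) have filled squares, and the intervals of Cyba and Ncf1 lie just below 0 although neither was called. The square of Duox2 is a description only, since the gene was chosen by its difference.

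Markers of macrophages, cells that carry the phagocyte oxidase, were measured beside these 3 genes. In RNA of a whole well, fewer cells of a type and less RNA per cell cannot be told apart. Of 22 markers, limma called 0 higher and 2 lower, beside 5.68% and 7.77% of all genes, with a median difference of -0.10. At an unadjusted p under 0.05, 1 was higher and 8 lower, with no share of all genes computed. With the variance prior from only the probe sets of the 18166 genes, 6 were called lower, and without rat 2 or rat 4, 0 were. Over all genes these fits called 2098, 246 and 301 lower, beside 1411 in the main fit. Markers lower in 4 of 4 rats numbered 8, and 1, Lyz2, was higher in 4 of 4. Among the 8 were Mrc1, the mannose receptor gene (-0.82 ± 0.21, adjusted p = 0.0586), Siglec1 (-0.71 ± 0.20, adjusted p = 0.0773) and Csf1r, the receptor gene of a macrophage growth factor (-0.46 ± 0.12, adjusted p = 0.0590), all named after their values were seen and not called. Other markers went up: Lyz2 had the largest upward difference (0.30 ± 0.10). Cd74 (0.17 ± 0.11), Spi1 (0.12 ± 0.21) and Cd68 (0.02 ± 0.24) were higher in 3 of 4 rats. None of them was called, and Spi1 and Cd68 were named after their values were seen. By rat, the list's median was lowest in rat 1 (-0.43) and was -0.03, -0.04 and -0.05 in the other rats. The 2 called genes, also named afterwards, were the Fc receptor gene Fcgr1a (-0.59 ± 0.09, adjusted p = 0.0162) and Adgre1 (-0.54 ± 0.12, adjusted p = 0.0434), which encodes the macrophage surface protein F4/80. Adgre1 lay below the array medians in all wells (3.48 to 4.94). Fcgr1a missed the threshold when rat 2 (adjusted p = 0.0928) or rat 4 (0.0835) was left out and without the rat as a block (0.0724). Adgre1 missed it when rats 2, 3 or 4 were left out (0.143 to 0.161), without the block (0.147) and after median centring (0.0552). The mean log2 signal over the list ran from 6.96 to 7.46 in AdGFP wells and from 6.49 to 7.31 in AdHIF1a wells, and no marker was at 0. The markers with the highest signal, Lyz2 (12.43 to 12.98) and Cd74 (12.13 to 12.68), are also made by ATII cells. The AdHIF1a well of rat 1 was the lowest of its group in 16 of the 22 markers, as it was in Cybb and Ncf1, but not in Fcgr1a, Adgre1, Lyz2 or Cd74. The AdGFP well of rat 1 was the lowest of its group as well in Cybb (9.27) and Ncf1 (6.80). This held in several markers, among them Mrc1 (6.53), Msr1 (8.93) and Ptprc (6.67), but not in others, such as Siglec1 and Csf1r. The part of the markers in the differences of the oxidase genes was not tested.

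**Figure D4:**
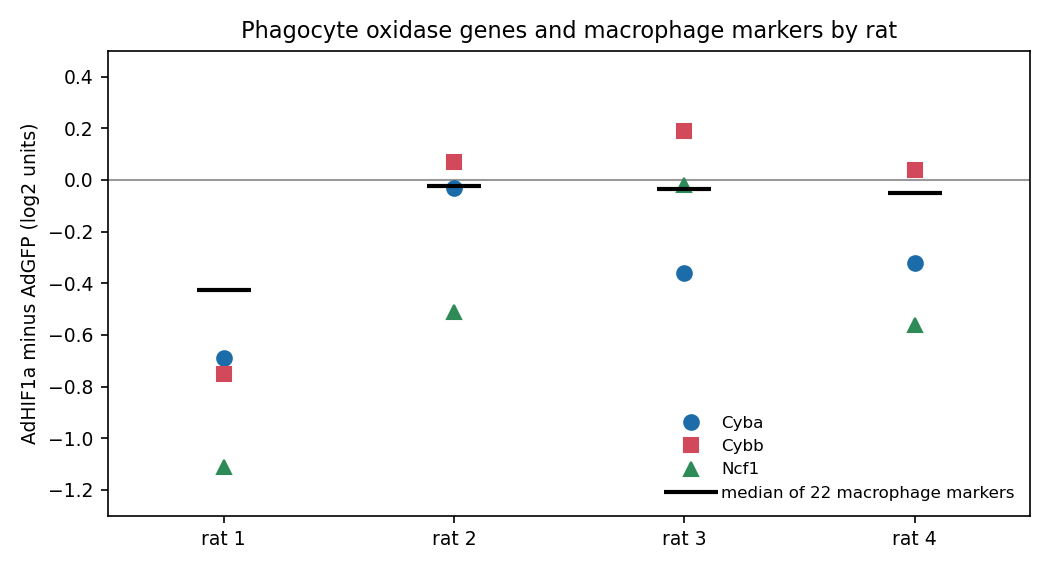
Difference between the AdHIF1a and AdGFP wells (log2 units) of Cyba, Cybb and Ncf1 in each rat, with a bar for the median of 22 macrophage markers. In rat 1 the 3 genes (-0.69, -0.75 and -1.11) and the markers (-0.43) were lower, and in the other rats the marker median was between -0.05 and -0.03.

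The other lists of marker genes place the wells. Of 13 measured ATII markers, 2 were called higher and 6 lower (median -0.39), and the 6 fell to 3 without rat 1 and to 1 without rat 2, 3 or 4. Over all genes, 1411 were called lower in the main fit and 1231, 246, 600 and 301 without rats 1, 2, 3 and 4. The lower genes included Napsa, an aspartic protease gene (-1.52 ± 0.18), and Lamp3, a lamellar body gene (-0.78 ± 0.13), and the higher ones were the surfactant protein genes Sftpa1 (0.89 ± 0.10) and Sftpb (0.69 ± 0.11), named after their values were seen. Sftpc, the surfactant protein gene that defines these cells, had signals of 12.12 to 12.78 in all 8 wells and was not called (0.29 ± 0.08). Airway epithelium, where dual oxidases are also known, had 0 of 9 measured markers called by limma, with 2 higher and 1 lower at an unadjusted p under 0.05 and a median difference of 0.04. The 1 lower was Muc5b (-0.37 ± 0.13, limma adjusted p = 0.14), lower in 4 of 4 rats and named after its value was seen. Bpifa1 (0.50 ± 0.13, adjusted p = 0.0619) and Bpifb1 (0.48 ± 0.12, adjusted p = 0.0586), secreted defence protein genes named after their values were seen, were higher in 4 of 4 rats. Both were called without rat 1 (0.0405 and 0.0328), together with Scgb3a1 (0.0288), and under quantile normalization (0.0477 for each). Bpifa1 and Bpifb1 were also called with the filter on dim probe sets (0.0366 and 0.0339). The variance prior from only the probe sets of the 18166 genes called both as well (0.0240 and 0.0226). Bpifb1 was called without the rat as a block too (0.0304). The secretory marker Scgb1a1 gave a high signal in all wells (12.42 to 12.79), and Scgb3a1 ran from 8.42 to 10.10. The mean log2 signal over the airway list was 6.08 to 6.23 in AdGFP wells and 6.07 to 6.45 in AdHIF1a wells. Of 10 neutrophil markers, 0 were higher and 1 lower (S100a9, -0.59 ± 0.10, limma adjusted p = 0.0218, named after its value was seen), with signals below the array medians and a call lost without rats 2, 3 or 4 (0.0686 to 0.103). Limma called 0 of 9 lymphocyte, 0 of 9 fibroblast and smooth muscle, and 0 of 5 endothelial markers, with 1, 1 and 0 at an unadjusted p under 0.05. The part of other cell types in the difference of Duox2 was not tested. Hif1a itself gave a lower signal on its rat probe set in AdHIF1a wells (-0.48 ± 0.08, limma adjusted p = 0.0217), and since the species of the transgene is not given, this does not check the labels.

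Among other components of these oxidases, 1 of 9 measured genes was called higher and 0 lower (median 0.003). In limma 2 were higher and 1 lower at an unadjusted p under 0.05. The called gene was Cybc1, a chaperone that the membrane subunits of the phagocyte oxidase need to mature. Its AdGFP signals were 9.53, 9.28, 9.43 and 9.47 and its AdHIF1a signals 10.26, 10.12, 9.90 and 10.26. All AdHIF1a wells were higher, by 0.71 ± 0.10 (0.46 to 0.95, limma adjusted p = 0.0117), a call that needed both rat 2 (0.0721 without it) and rat 4 (0.0715 without it). Noxo1 and Noxa1, the organiser and activator of Nox1, differed by 0.06 and -0.32, Ncf4 of the phagocyte oxidase by -0.04, and the GTPase genes Rac1 and Rac2 by -0.09 and -0.36, none of them called and all named after their values were seen. P4hb, named afterwards too, was higher in 4 of 4 rats (0.245 ± 0.088) but not called (limma adjusted p = 0.143).

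Enzymes that use hydrogen peroxide included 1 clear decrease. Of 6 measured haem peroxidases, 0 were called higher and 1 lower (median -0.06). Pxdn, which encodes peroxidasin, an enzyme that cross-links collagen IV of basement membranes, had AdGFP signals of 7.50, 7.41, 6.90 and 7.48 and AdHIF1a signals of 6.40, 5.75, 5.93 and 6.05. Its groups did not overlap, and it fell by 1.29 ± 0.14 (limma adjusted p = 0.00625), or 2.45-fold, a call kept without any 1 rat (adjusted p 0.0200 to 0.0440). Lpo, the lactoperoxidase gene that works with dual oxidases in airways, differed by -0.06 with signals of 5.12 to 5.51, and Ptgs1, the cyclooxygenase 1 gene, by -0.80 (limma adjusted p = 0.0518), both named after their values were seen.

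Genes that remove superoxide and peroxides were mostly uncalled, with 0 of 19 higher and 1 lower (median 0.03). In limma 2 were higher and 3 lower at an unadjusted p under 0.05. The gene called lower was Gpx1, a glutathione peroxidase, with AdGFP signals of 10.22, 10.09, 9.84 and 10.03 and AdHIF1a signals of 10.03, 9.45, 9.35 and 9.35. It fell by 0.50 ± 0.11 (limma adjusted p = 0.0425), least in rat 1, and this call was lost without rat 2 (0.182), rat 3 (0.131) or rat 4 (0.179), without the rat as a block (0.0772) and after median centring (0.0621). The largest difference upward was that of Sod2, the mitochondrial superoxide dismutase gene (0.50), which was not called (limma adjusted p = 0.0635) and was named after its value was seen. Prdx4 (-0.58 ± 0.19, adjusted p = 0.108) and Gpx4 (-0.56 ± 0.14, adjusted p = 0.0578), named afterwards too, differed more than Gpx1 but were not called. Gpx4 was called under some alternatives, among them no block (0.0214) and omission of rat 1 (0.0234), but not without rat 2, 3 or 4 (0.175 to 0.221).

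Receptors and signal carriers known to act upstream of dual oxidase genes went both ways, with 3 of 14 called higher and 1 lower (median -0.10). Stat6, the transcription factor of interleukin 4 and 13 signalling, rose by 1.01 ± 0.10 (limma adjusted p = 0.00516), with all AdHIF1a wells (11.04 to 11.41) above all AdGFP wells (10.21 to 10.42). Tnfrsf1a, a receptor of tumour necrosis factor, rose by 0.59 ± 0.08 (adjusted p = 0.0129), and Jak2, a kinase of cytokine receptors, by 0.51 ± 0.09 (adjusted p = 0.0244). The endotoxin receptor gene Tlr4, named after its value was seen, fell by 0.50 ± 0.10 (adjusted p = 0.0322). The call of Stat6 was kept without any 1 rat (adjusted p 0.0171 to 0.0401). Tnfrsf1a missed the threshold when rat 2 (0.0801) or rat 4 (0.0774) was left out. Jak2 and Tlr4 missed it whichever rat was left out (0.0597 to 0.122 and 0.0565 to 0.153). Jak2 was not called after median centring either (0.0782). The subunits of the interleukin 4 and 13 receptor, Il4r and Il13ra1, were likewise named afterwards. They differed by -0.44 and -0.33, with all AdHIF1a wells below all AdGFP wells, and were not called (limma adjusted p = 0.0579 and 0.0783). Some alternatives called both, among them no block (0.0353 and 0.0475) and the filter on dim probe sets (0.0321 and 0.0394). Neither was called when any 1 rat was left out (0.0846 to 0.224 and 0.0941 to 0.290).

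**Figure D5:**
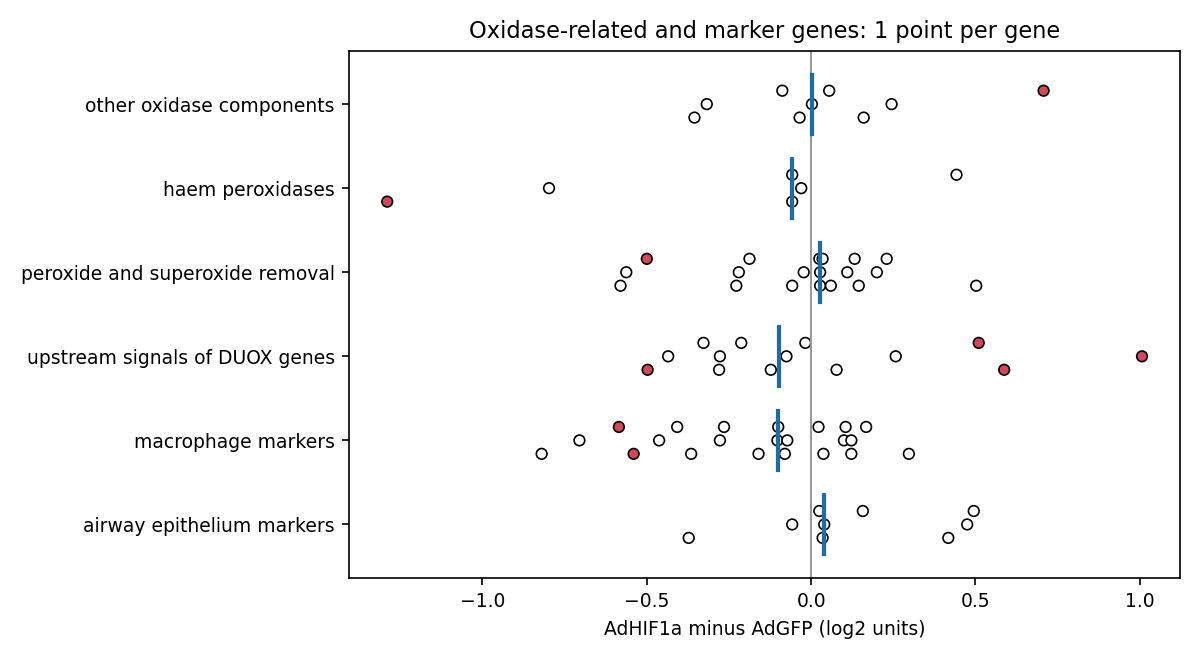
Difference between the AdHIF1a and AdGFP wells (horizontal axis, log2 units) of single genes in 6 lists, 1 point per gene, red where called at an adjusted p under 0.05, with a blue bar for the median of the list. Cybc1 (0.71), Stat6 (1.01) and Pxdn (-1.29) stand farthest out among the called genes of these lists, whose medians lie between -0.10 and 0.04.

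The genes with the pattern most like that of Duox2 were found by the root mean square distance between the 8 array values, after subtraction of each gene's mean. These were Adm (0.32 log2 units), Crct1 (0.41), Cntfr (0.42), Ciart (0.45) and Rcor2 (0.50). Adm, which encodes the vasodilator peptide adrenomedullin, rose by 3.54, 4.62, 3.66 and 4.54 in rats 1 to 4, beside 4.24, 4.77, 3.35 and 4.41 for Duox2. Rcor2, a corepressor gene, rose by 3.34 to 3.69. For Duoxa2 the nearest were Catsperd (0.26), a sperm calcium channel subunit gene, Nampt (0.28), which makes a precursor of NAD, and Hif3a (0.28), a HIF alpha subunit gene. Nampt rose by 0.90, 1.26, 0.89 and 1.42 and Hif3a by 0.98, 1.39, 0.97 and 1.55 in rats 1 to 4, so that rats 2 and 4 had the larger differences, as for Duoxa2. All these genes were picked for likeness over the same 8 array values, so a pattern over rats shared with Duox2 or Duoxa2 follows from the choice. Likeness over 8 arrays that fall into 2 groups also depends on the size of the difference, and the 2 parts were not tested apart.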

How the data were processed

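The authors deposited 1 log2 signal per probe set and array, made with Affymetrix Expression Console per the submitters' processing notes. Which algorithm, version and genome build were used is not stated there. That the scale is log2 was taken from the range of values (1.42 to 13.57). Upper quartiles of 7.62 to 7.68 point to arrays scaled to each other, so a shift of all transcripts would not be seen. The number of arrays limits the precision.

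Of 36685 probe sets, 18511 carried 1 gene symbol, 575 several and 17599 none; the highest mean over the arrays chose among several probe sets of a gene, leaving 18166 genes. The paired comparison used limma 3.58.1 (R 4.3.3) on all probe sets, unfiltered, with a fixed term for each rat, two-sided p-values and Benjamini-Hochberg adjustment over those genes. The variance prior came from all probe sets. A prior from only the probe sets of the 18166 genes was added as an alternative after seeing the data. The series' design pairs wells by rat; deviations of 2 wells of a rat correlated at 0.18 to 0.26 across genes, those of different rats at -0.22 to 0.08. At most 1.95% of values of any 2 arrays were equal. The fit was tested on simulated data.

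The members, gene lists and naming rule were chosen with earlier results of these data known. Named were all members, the 3 called genes with the smallest adjusted p in each related list, the 2 brightest genes in each marker list, and the 5 genes most like Duox2 and 3 most like Duoxa2. Of these, Cldn18, Lcn2, Cxcr1, Nkg7, Cd79a, Col1a1, Des, Cdh5 and Emcn are marker genes not described singly, save where the closing section lists them. Any other gene was named after its values were seen, the locus neighbours by position only. Alternatives were no block, a random block, quantile normalization, median centring, a filter on dim probe sets, another variance prior, the mean of probe sets, an adjusted p under 0.01 and omission of each rat. Promoter windows came from RefSeq (GRCr8). The array's build is not given, so no probe set or gene coordinates are reported beside those of the windows.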

Additional observations from a re-analysis of the deposited data

Results flagged for a closer look

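A well far from the other 3 of its group was seen in 5 of 70 groups of 4 wells, over 35 named genes; chance gives about 1 in 20. None was a member of the family. The peroxidase gene Pxdn had 6.90 in the AdGFP well of rat 3, against 7.41 to 7.50 in the other AdGFP wells. Gpx1 had 10.03 in the AdHIF1a well of rat 1, against 9.35 to 9.45. In that same well the airway marker Scgb1a1 had 12.42, against 12.75 to 12.79, and Cxcr1, listed as a neutrophil marker, 6.03, against 7.21 to 7.45. The collagen gene Col1a1 had 5.50 in the AdHIF1a well of rat 4, against 5.78 to 5.81.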

How the results depend on the processing

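Duox2 differed by 4.0 to 4.47 over the 13 alternatives, a description only, since it was chosen by its difference. Duoxa2 kept its sign under all 13 (1.06 to 1.52) and its call in 8; it was lost without any 1 rat and at an adjusted p under 0.01, where 1 member was called and 656 genes in all. Without any 1 rat, 1 member was called (1 to 1). The genes called numbered 2006 without rat 1, 561 without rat 2, 1117 without rat 3 and 625 without rat 4. Each omission leaves fewer wells, and the cause of the spread in these counts was not tested. Without the replicate block, 2951 genes and 2 members were called, and the adjusted p of Duoxa2 was 0.0120. With the variance prior from only the probe sets of the 18166 genes, an alternative added after seeing the data, 3674 genes and the same 2 members were called (Duoxa2 adjusted p = 0.0133). Signs turned for uncalled members only: Cybb without rat 1 (0.10; range with each rat left out -0.21 to 0.10), Duox1 without rat 4 (0.15; range -0.13 to 0.15), and Duoxa1 without rat 3 (0.05) or rat 4 (0.04; range -0.13 to 0.05); the cause was not tested. Nox4, Cyba and Ncf1 stayed negative and uncalled in each alternative that tested them; the filter on dim probe sets left out Duox1 and Nox4. Folds of Duox2, Duox1 and Nox4 are limited by control signals near or below the array medians.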

Other observations

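The AdGFP wells of rats 1 and 3 shared high values of several genes with Duoxa2, a pattern noticed after the values were seen. Noxo1, the organiser of Nox1, had AdGFP signals of 7.26, 5.87, 7.49 and 6.01 in rats 1 to 4 and AdHIF1a signals of 6.76, 6.82, 6.86 and 6.41, so that it was lower in AdHIF1a in rats 1 and 3 and higher in rats 2 and 4. Lcn2, which encodes the iron-binding antibacterial protein lipocalin 2, had AdGFP signals of 11.12, 9.12, 10.84 and 8.90 and AdHIF1a signals of 10.29, 9.67, 9.82 and 8.96. Sod2 had AdGFP signals of 9.84, 9.23, 9.72 and 9.15. In each of these genes the control wells of rats 1 and 3 lay above those of rats 2 and 4, as for Duoxa2 (6.66 and 6.69 against 5.58 and 5.71) and Duox2 (5.56 and 6.21 against 4.68 and 5.24). Cyba had this order too (10.82 and 10.47 against 10.21 and 10.19), while the remaining measured members did not. Each rat had its own extraction day, so animal and day cannot be told apart, and no test was made of this pattern.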
